A study of Canis lupus familiaris with 15 samples.

Results

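Rab GTPases are small GTP-binding proteins that mark the compartments of membrane traffic. The RNA of their genes was measured in Madin-Darby canine kidney (MDCK) cells given hepatocyte growth factor (HGF) with and without inhibitors of the MAPK pathway. Members were the genes whose symbol in the platform annotation is RAB followed by a digit and names a Rab GTPase itself. The annotation held 55 such genes with 99 probe sets, and 9 symbols of Rab partner proteins, such as RAB3IP and RAB11FIP1, were left out. Of the 55 genes, 42 reached a log2 intensity of 4 on 3 or more arrays, among 10287 genes that did so in the whole table. Where a gene had several probe sets, the brightest on average over the 15 arrays stood for it.

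A Rab is loaded with GTP by an exchange factor, then recruits effectors such as tethers and motors to a membrane, and is switched off by a GTPase-activating protein. Lipid anchors added by the Rab geranylgeranyl transferase hold it in the membrane. Different Rabs mark the ER and Golgi, early, recycling and late endosomes, and secretory vesicles. In polarised epithelia such as MDCK, several of them sort cargo to the apical or basolateral surface, to cell junctions and to the primary cilium.

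MDCK is an established line of dog kidney epithelium. All cells stood on Transwell filters for 7 days in MEM with 5% serum. The Control group (n = 4 arrays) received medium alone. The HGF group (n = 4) received 100 ng/ml HGF, which activates the receptor MET, for 24 h. The HGF + PD group (n = 4) received the same HGF with 50 uM of a compound the labels spell PD09859, and the HGF + UO group (n = 3) received it with 10 uM of a compound spelled UO126. The series asked which genes depend on the MAPK pathway after HGF. None of these groups received a compound without HGF, and no vehicle is named in the labels.

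The values are log2 probe intensities, and the number of arrays limits their precision. Levels of different genes were not set against each other, since probes differ in brightness. The median intensity was 40.2 to 42.5 on the 15 arrays. All 8 annotated markers of kidney epithelium passed the filter, and of these CDH1 was higher with HGF and CDH16, PAX8, EPCAM and KRT18 were lower. The leukocyte markers PTPRC and ITGAM did not pass the filter, while CD68 averaged 3.25 in Control and 6.28 with HGF, and the summed leukocyte list (3 of 5 annotated genes kept) ran from 6.83 to 6.88 in Control and from 7.02 to 8.54 with HGF. The other kept leukocyte markers did not rise, with CD3E at 6.04 and 5.89 (adjusted p = 0.0165) and CD14 at 4.11 and 4.04 (adjusted p = 0.689). Of the fibroblast list 2 of 6 and of the endothelium list 3 of 5 genes were kept, and none of these 5 passed the test with HGF. The beta-actin control probes gave a 3' minus 5' log2 difference, a measure of RNA length, of 0.59 ± 0.03 (SD, n = 4) with HGF, 1.34 ± 0.05 (n = 4) in Control, 1.28 ± 0.06 (n = 4) in HGF + PD and 1.28 ± 0.04 (n = 3) in HGF + UO. The GAPDH probes gave 1.13, 1.06, 1.08 and 1.25 in Control, HGF, HGF + PD and HGF + UO. For actin, HGF differed from each other group at the smallest p that these array numbers allow (two-sided exact permutation p = 0.0286, 0.0572 adjusted over 10 tests). For GAPDH, HGF + UO differed from Control and from HGF at the same p. This ratio and CD68 moved with the HGF group, and their part in the results below was not tested.

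With HGF, 25 of the 42 Rab genes changed (limma, adjusted p under 0.05), 12 upwards and 13 downwards. The background was of similar size, since 55.7% of all genes were called in this comparison, 28% upwards and 27.7% downwards. The largest changes were falls, while the smallest called fall was -0.15 (RAB30) and the smallest called rise 0.17 (RAB34). RAB15, a Rab of recycling endosomes, RAB32, of lysosome-related organelles, and RAB28, a Rab linked to cilia, were lower by the most (log2 differences of -2.12, -1.92 and -1.43). The widest rise was that of RAB9A, which serves the route from late endosomes to the trans-Golgi network (1.02 ± 0.05, SE of the fit).

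The median log2 difference of the 42 genes was 0.05, against -0.01 over all genes, and the median size was 0.27 against 0.26. Changes of at least 1 on the log2 scale were called for 4 Rab genes, 1 higher and 3 lower, and for 13.7% of all genes, 7.29% higher and 6.43% lower. For 21 Rab genes the change was called and the arrays of the groups did not overlap, as for 50% of all genes. The split of 12 higher and 13 lower depended on scaling. It became 18 and 10 when each array's median was subtracted and 13 and 14 after quantile normalization. In a bulk RNA sample, fewer cells of a type and less RNA per cell cannot be told apart.

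**Figure D1:**
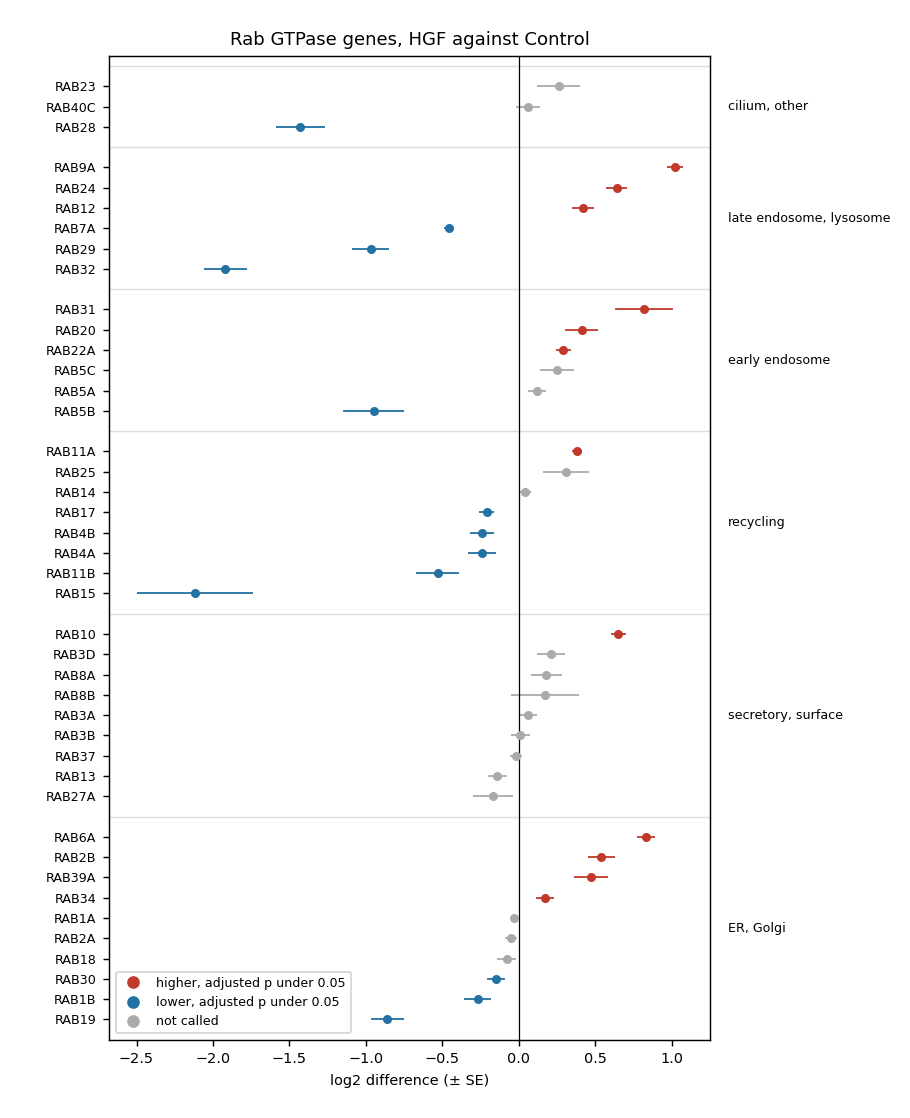
Log2 difference of the 42 Rab GTPase genes between HGF and Control (points, with the SE of the fit as bars), grouped by the compartment each Rab is known for. The 12 red genes were higher and the 13 blue ones lower at an adjusted p under 0.05, and RAB15 at -2.12 and RAB32 at -1.92 lie farthest from 0.

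By compartment, the share of members called ranged from 11.1% to 100%, beside 55.7% of all genes (28% higher and 27.7% lower). All 6 Rabs of late endosomes, lysosomes and related organelles were called, 3 higher and 3 lower, with a median size of 0.80 on the log2 scale against 0.26 over all genes. Of 9 Rabs of secretory vesicles and surface delivery 1 was called. Recycling endosome Rabs gave 1 rise and 5 falls among 8, early endosome Rabs 3 rises and 1 fall among 6, and ER and Golgi Rabs 4 rises and 3 falls among 10. The difference between these groups was not tested, and the grouping of a Rab with a single compartment is a simplification, since many act at several. The groups were also drawn up with earlier results of these data known, so their shares are descriptive only.

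As grouped here, the late endosome and lysosome group held the most called members for its size. RAB9A read 10.22, 10.21, 10.21 and 10.24 on the Control arrays and 11.17, 11.11, 11.36 and 11.33 on the HGF arrays (replicates 1 to 4, as in all such lists below), a rise of 1.02 ± 0.05 or 2.03-fold (adjusted p = 9.28e-10). The Control arrays lay within 0.03 of each other and every HGF array stood well above them. RAB24, a Rab linked to autophagy, read 9.41, 9.52, 9.52 and 9.54 in Control and 9.95, 10.13, 10.20 and 10.26 with HGF, a rise of 0.64 ± 0.07 (adjusted p = 2.31e-06). A dimmer RAB24 probe set gave 0.36 and did not pass (adjusted p = 0.242). RAB12, which directs transferrin receptor to lysosomes, read 10.17, 10.07, 10.11 and 10.16 in Control and 10.46, 10.70, 10.50 and 10.53 with HGF (0.42 ± 0.07, adjusted p = 0.000115).

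The other 3 members went down, RAB32 by the most. RAB32, which brings cargo to melanosomes and related organelles, read 10.66, 10.43, 10.64 and 10.39 in Control and 8.46, 8.27, 9.02 and 8.71 with HGF, a fall to a level 3.78-fold lower (-1.92 ± 0.14, adjusted p = 2.23e-08). Its other probe sets gave -1.73 and -2.38, so all 3 moved the same way. RAB29, a relative of RAB32 that acts at the Golgi and lysosomes and recruits the kinase LRRK2, read 8.30, 8.30, 8.30 and 8.16 in Control and 7.37, 7.12, 7.51 and 7.19 with HGF (-0.97 ± 0.12, adjusted p = 9.93e-06), and a further probe set gave -0.85. RAB7A, the Rab of late endosome fusion with lysosomes, read 14.49, 14.36, 14.40 and 14.43 in Control and 13.90, 13.99, 13.98 and 13.95 with HGF (-0.46 ± 0.03, adjusted p = 2.81e-08). The fall of RAB7A passed on its brightest probe set alone. The others gave -0.17 and -0.03 without passing, and the mean of all 3 gave -0.22 without passing.

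Among recycling endosome Rabs the falls outnumbered the rises. RAB15 read 7.29, 7.18, 7.12 and 6.48 in Control and 4.72, 4.69, 4.77 and 5.40 with HGF, 4.35-fold lower (-2.12 ± 0.38, adjusted p = 0.000245). No array of one group reached the other, and the HGF values lay near the filter level of 4, where the size of a fall depends on the background that GCRMA subtracts. RAB4A and RAB4B, Rabs of rapid recycling to the surface, gave -0.24 ± 0.09 and -0.24 ± 0.08 (adjusted p = 0.0442 and 0.0163), and both calls were lost when array medians were subtracted. The RAB4A call was lost in 12 of 24 alternatives. A dimmer RAB4A probe set gave -0.30 (adjusted p = 0.000127), while a dimmer RAB4B probe set gave -0.10 and did not pass (adjusted p = 0.194). RAB17, a Rab found mainly in epithelia and tied to transcytosis, read 7.36, 7.26, 7.24 and 7.25 in Control and 7.00, 7.12, 7.07 and 7.07 with HGF (-0.21 ± 0.05, adjusted p = 0.00221). This fall was small, but the arrays did not overlap.

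The RAB11 family governs apical recycling, and RAB11A and RAB11B moved in opposite directions. RAB11A read 13.23, 13.17, 13.20 and 13.24 in Control and 13.58, 13.66, 13.56 and 13.57 with HGF, a rise of 0.38 ± 0.03 (adjusted p = 8.87e-08), and a dimmer probe set gave 0.24 (adjusted p = 0.00093). RAB11B read 11.19, 10.96, 11.21 and 10.76 in Control and 10.23, 10.51, 10.79 and 10.47 with HGF, a difference of -0.53 ± 0.14 (adjusted p = 0.00578) with overlapping arrays. RAB25, the family member restricted to epithelia, read 7.23, 7.02, 7.34 and 6.82 in Control and 7.20, 7.50, 7.59 and 7.36 with HGF, and its difference of 0.31 ± 0.15 did not pass (adjusted p = 0.1). RAB25 passed after either rescaling of the arrays. RAB14, which links the Golgi to endosomes and the apical surface, read 11.56, 11.60, 11.54 and 11.58 in Control and 11.53, 11.56, 11.68 and 11.69 with HGF. Its difference of 0.04 did not pass, with a 95% interval from -0.05 to 0.14.

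In the early endosome group RAB31, RAB20 and RAB22A rose and RAB5B fell. RAB31, a Rab between the trans-Golgi network and endosomes, read 6.00, 6.55, 6.36 and 6.30 in Control and 6.85, 6.93, 7.85 and 6.84 with HGF (0.82 ± 0.19, adjusted p = 0.00228). HGF replicate 3 stood apart from the others, and without it the rise was 0.57. A dimmer RAB31 probe set rose by 1.88, from a Control mean of 3.65 that lies under the filter level. RAB20, a Rab of endosome and phagosome maturation, and RAB22A, which acts in endosomal sorting, rose by 0.41 ± 0.11 and 0.29 ± 0.05 (adjusted p = 0.00485 and 0.000117). RAB5B, one of the Rabs that drive fusion of early endosomes, read 10.30, 10.05, 10.38 and 9.70 in Control and 8.87, 9.16, 9.35 and 9.26 with HGF (-0.95 ± 0.20, adjusted p = 0.000946).

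Of the RAB5 genes RAB5B alone passed. RAB5A gave 0.12 ± 0.06 (adjusted p = 0.122) and RAB5C 0.25 ± 0.11 (adjusted p = 0.0793), and neither passed. RAB5C passed after either rescaling and RAB5A when array medians were subtracted, both upwards. A further RAB5B probe set gave -0.67 (adjusted p = 0.0014).

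Of the ER and Golgi Rabs, RAB6A moved the most upwards and RAB19 the most downwards. RAB6A, the Rab of retrograde traffic through the Golgi, read 11.40, 11.42, 11.49 and 11.47 in Control and 12.33, 12.30, 12.22 and 12.25 with HGF, a rise of 0.83 ± 0.06 (adjusted p = 9.95e-09). Its 3 other probe sets rose by 1.64, 0.94 and 0.78. RAB2B, which acts between ER and Golgi, read 8.80, 8.52, 8.65 and 8.49 in Control and 9.16, 9.11, 9.11 and 9.26 with HGF (0.54 ± 0.09, adjusted p = 0.000134), and 0.37 and 0.18 on dimmer probe sets. RAB19, a Golgi-associated Rab, read 7.47, 7.17, 7.21 and 7.00 in Control and 6.57, 6.29, 6.33 and 6.24 with HGF (-0.86 ± 0.11, adjusted p = 7.84e-06). Arrays of the 2 groups did not overlap for RAB6A, RAB2B or RAB19.

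The remaining ER and Golgi members changed less. RAB39A and RAB34, a Rab of the Golgi and of cilium formation, rose by 0.47 ± 0.11 and 0.17 ± 0.06. RAB1B, which drives ER-to-Golgi transport, and the Golgi Rab RAB30 gave -0.27 ± 0.09 and -0.15 ± 0.06. RAB1B, RAB30 and RAB34 each lost the call in 1 or more of the alternatives, and 3 other RAB1B probe sets did not pass. RAB1A, RAB2A and RAB18 gave -0.03, -0.05 and -0.08 and did not pass.

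Secretory and surface Rabs gave a single call, RAB10. RAB10, which carries cargo to the basolateral surface, read 11.40, 11.30, 11.32 and 11.47 in Control and 11.98, 12.01, 12.03 and 12.07 with HGF (0.65 ± 0.05, adjusted p = 5.18e-08). The groups were well apart on this probe set, but a slightly dimmer one gave 0.08 (adjusted p = 0.242), and the mean of both gave 0.36. RAB8A, which delivers cargo to the surface and the cilium, read 8.74, 8.47, 8.53 and 8.47 in Control and 8.68, 8.94, 8.59 and 8.70 with HGF (0.18, 95% interval -0.03 to 0.38). RAB8B read 6.10, 5.29, 5.46 and 5.81 in Control and 5.73, 5.73, 5.68 and 6.19 with HGF (0.17, interval -0.30 to 0.64). Neither RAB8 gene passed, and the interval of RAB8B is wide. A slightly dimmer RAB8B probe set gave -0.19 and did not pass either (adjusted p = 0.227).

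RAB13, a Rab of tight junctions, RAB27A, which docks secretory granules, and RAB3B, a Rab of regulated secretion, complete the polarity genes. RAB13 read 10.38, 10.16, 10.15 and 10.30 in Control and 10.09, 10.04, 10.19 and 10.14 with HGF, and -0.14 ± 0.06 just missed the threshold (adjusted p = 0.0508). RAB27A read 7.86, 7.72, 7.65 and 7.79 in Control and 7.43, 7.88, 7.43 and 7.59 with HGF (-0.17, interval -0.45 to 0.12). RAB3B read 5.33, 5.31, 5.20 and 5.37 in Control and 5.36, 5.31, 5.29 and 5.31 with HGF (0.01, interval -0.11 to 0.13). All 3 overlapped between the groups. RAB3A, RAB3D and RAB37, further Rabs of secretory granules, gave 0.06, 0.21 and -0.02, with RAB3D close to the threshold (adjusted p = 0.0524). RAB27B and RAB35 stayed below the filter on all 15 arrays, as did 11 other Rab genes.

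RAB28, a Rab of photoreceptors and other cilia, stood alone in the last group of 3. It read 7.91, 7.79, 7.87 and 7.51 in Control and 6.25, 6.65, 5.85 and 6.61 with HGF, 2.69-fold lower (-1.43 ± 0.16, adjusted p = 2.22e-06). RAB23, a regulator of Hedgehog signalling at the cilium, gave 0.26 ± 0.14 (adjusted p = 0.121), and RAB40C, which binds a ubiquitin ligase, gave 0.06 ± 0.08. Neither passed, although the RAB23 arrays did not overlap.

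**Figure D2:**
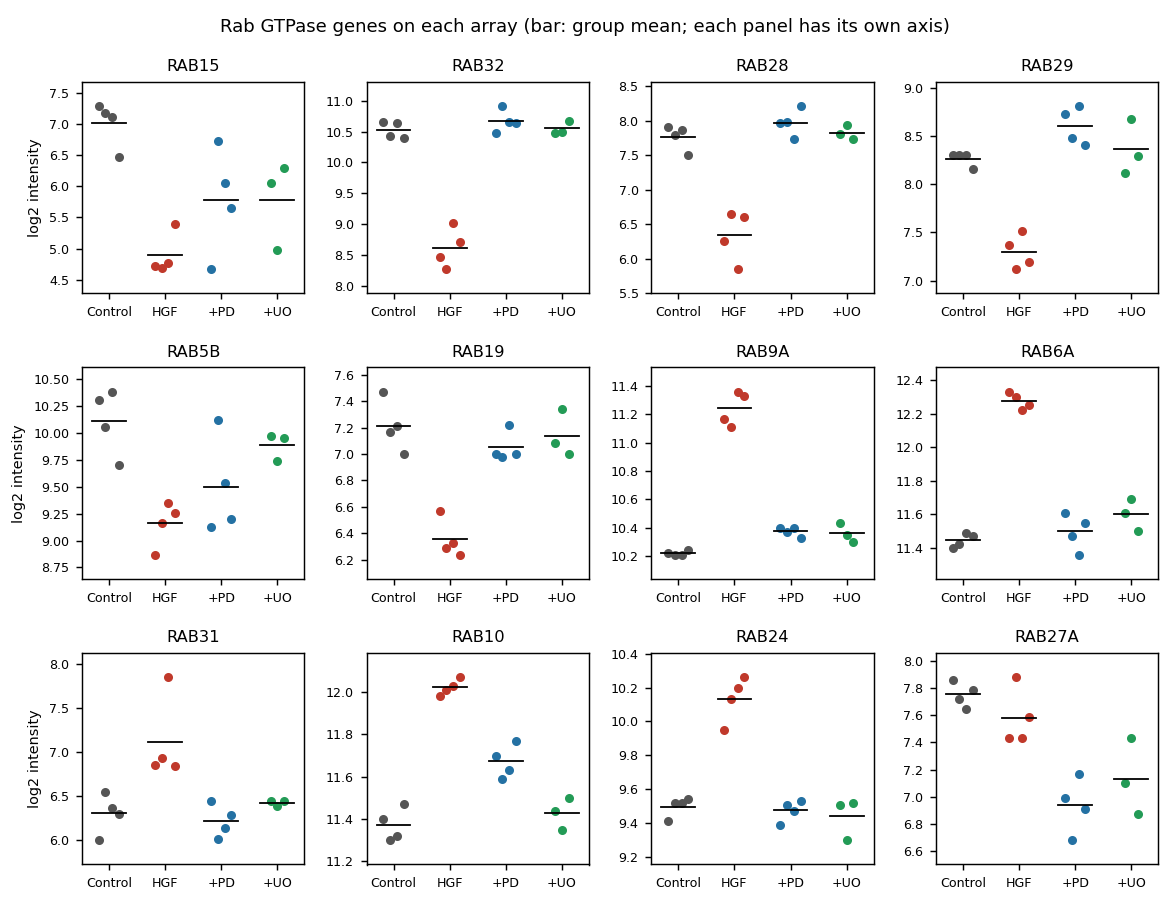
Log2 intensity of 12 Rab genes on each of the 15 arrays, in Control, HGF, HGF + PD (+PD) and HGF + UO (+UO), with bars at the group means and a separate axis for each gene. RAB32 sits between 8.27 and 9.02 on the HGF arrays and between 10.39 and 10.91 on all others, while RAB27A is lowest under the inhibitors.

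The comparisons of each inhibitor group with HGF show how the same genes read when a compound was added to HGF. Both use the HGF arrays that also entered the comparison with Control, so a value that is high on those arrays by chance lowers both inhibitor differences and raises the HGF difference. HGF + PD differed from HGF in 23 of the 42 Rab genes, 9 higher and 14 lower, beside 55.7% of all genes, 29.9% higher and 25.8% lower. HGF + UO differed in 26, 11 higher and 15 lower, beside 52.5% of all genes, 26.2% higher and 26.3% lower. The median differences were -0.06 and -0.07, against -0.02 and 0.00 over all genes. Subtracting array medians gave 6 higher and 18 lower for HGF + PD. The doses differ, so values of the inhibitors are given side by side and the difference between them was not tested.

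RAB32, RAB28 and RAB29 were the largest rises under both compounds. RAB32 read 10.48, 10.91, 10.66 and 10.64 with PD and 10.48, 10.50 and 10.67 with UO, above every HGF array, with differences of 2.06 ± 0.14 (adjusted p = 1.04e-08) and 1.94 ± 0.15 (adjusted p = 5.52e-08). RAB28 read 7.97, 7.98, 7.74 and 8.21 with PD and 7.81, 7.94 and 7.74 with UO, with differences of 1.64 ± 0.16 and 1.49 ± 0.17 (adjusted p = 5.46e-07 and 3.69e-06). RAB29 read 8.73, 8.48, 8.81 and 8.41 with PD and 8.12, 8.68 and 8.29 with UO, with differences of 1.31 ± 0.12 and 1.06 ± 0.13 (adjusted p = 4.54e-07 and 9.73e-06). No inhibitor array of these genes fell within the range of the HGF arrays. They were also the only Rab genes called higher by 1 or more on the log2 scale, beside 6.96% of all genes for HGF + PD and 6.61% for HGF + UO.

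RAB19, RAB4B, RAB7A, RAB17 and RAB1A were higher under both inhibitors as well. RAB19 differed from HGF by 0.69 ± 0.11 with PD and 0.79 ± 0.12 with UO. RAB4B read 9.93, 9.72, 9.87 and 10.01 with PD and 10.20, 9.98 and 9.99 with UO, against 9.47, 9.42, 9.45 and 9.48 with HGF (0.43 ± 0.08 and 0.60 ± 0.08). RAB17 read 7.24, 7.24, 7.22 and 7.24 with PD and 7.39, 7.24 and 7.29 with UO (0.17 ± 0.05 and 0.24 ± 0.05). The RAB17 call under PD and the RAB1A calls under both were lost when array medians were subtracted. RAB7A read 14.17, 14.28, 14.20 and 14.25 with PD and 14.34, 14.41 and 14.34 with UO (0.27 ± 0.03 and 0.41 ± 0.04). For RAB7A the mean of all 3 probe sets turned the PD difference to -0.16 and left 0.06 for UO, neither of which passed.

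Some members were called under one compound and not the other. RAB5B was called with UO (0.73 ± 0.22, adjusted p = 0.0109) and not with PD (0.34 ± 0.20, adjusted p = 0.173). A further RAB5B probe set also passed with UO (0.44, adjusted p = 0.0324). RAB1B and RAB11B were called with UO (0.40 ± 0.09 and 0.40 ± 0.16) and not with PD (0.02 ± 0.09 and 0.15 ± 0.14). Other RAB1B probe sets gave 0.09, 0.01 and 0.10 with UO and did not pass, although the RAB1B call held in all 24 alternatives. A dimmer RAB11B probe set gave 0.36 with UO and did not pass (adjusted p = 0.309). RAB25 and RAB14 were lower with PD (-0.55 ± 0.15 and -0.20 ± 0.04) and were not called with UO (-0.10 ± 0.16 and -0.04 ± 0.05). A dimmer RAB14 probe set gave -0.09 with PD and did not pass (adjusted p = 0.236). RAB2A was called higher with PD alone (0.11 ± 0.04), and RAB12, RAB23 and RAB5A lower with UO alone (-0.38, -0.39 and -0.21). Dimmer probe sets of RAB2A with PD and of RAB12 and RAB5A with UO gave -0.02, -0.18 and -0.03, and none passed. The RAB2A call was lost in 10 of 24 alternatives and the RAB11B call under UO in 10. Without HGF + UO replicate 2 the RAB23 difference was -0.17 and did not pass. A gene past the threshold under one compound is not shown to differ between them. RAB15 read 4.67, 6.73, 6.05 and 5.65 with PD and 6.05, 4.98 and 6.29 with UO, spanning the gap between HGF and Control, and its differences of 0.88 ± 0.38 and 0.88 ± 0.41 did not pass (adjusted p = 0.0654 and 0.0906). RAB15 passed under PD when HGF replicate 4, HGF + PD replicate 1 or HGF + UO replicate 2 was left out, and under UO without either of the last 2.

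The falls against HGF were led by RAB9A, RAB31, RAB6A and RAB24. RAB9A read 10.40, 10.37, 10.40 and 10.33 with PD and 10.43, 10.35 and 10.30 with UO, with differences of -0.87 ± 0.05 and -0.88 ± 0.06 (adjusted p = 5.61e-09 and 1.28e-08). RAB6A read 11.61, 11.47, 11.36 and 11.55 with PD and 11.61, 11.69 and 11.50 with UO, with differences of -0.78 ± 0.06 and -0.67 ± 0.06. RAB24 read 9.39, 9.51, 9.47 and 9.53 with PD and 9.51, 9.30 and 9.52 with UO, with differences of -0.66 ± 0.07 and -0.69 ± 0.08. Every HGF array of these genes lay above every inhibitor array on the brightest probe sets. The dimmer RAB24 probe set gave -0.52 with PD and -0.43 with UO and did not pass (adjusted p = 0.0933 and 0.201). RAB31 read 6.45, 6.01, 6.14 and 6.29 with PD and 6.45, 6.39 and 6.44 with UO, with differences of -0.89 ± 0.19 (adjusted p = 0.00115) and -0.69 ± 0.21 (adjusted p = 0.0119). The UO difference of RAB31 was -0.45 without HGF replicate 3, and it lost its call in a fit of those 2 groups alone. The dimmer RAB31 probe set gave -1.94 with PD and -1.88 with UO (adjusted p = 3.52e-09 and 1.3e-08). Its inhibitor means of 3.59 and 3.65 lie under the filter level.

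Several Rabs of the surface and recycling routes were also lower under both inhibitors. RAB10 read 11.70, 11.59, 11.63 and 11.77 with PD and 11.44, 11.35 and 11.50 with UO (-0.35 ± 0.05 and -0.59 ± 0.05), while its dimmer probe set gave 0.04 and -0.01. RAB11A read 13.34, 13.27, 13.30 and 13.38 with PD and 13.09, 13.08 and 13.09 with UO (-0.27 ± 0.03 and -0.50 ± 0.03). The RAB11A call under PD was lost in the mean of its probe sets (-0.08). RAB27A, which had not passed with HGF, read 6.99, 6.68, 7.17 and 6.91 with PD and 7.10, 7.43 and 6.87 with UO (-0.65 ± 0.13 and -0.45 ± 0.14, adjusted p = 0.000759 and 0.016). The UO call of RAB27A was lost without HGF + UO replicate 3. RAB3D gave -0.41 ± 0.09 and -0.31 ± 0.09 (-0.20 for UO without HGF + UO replicate 2, not passing), and RAB22A -0.43 ± 0.05 and -0.37 ± 0.05. Of the members grouped with ER and Golgi, RAB2B, RAB39A and RAB34 lay between -0.66 and -0.30. The PD call of RAB39A was lost in 3 of 24 alternatives, each with 1 array left out.

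Other polarity Rabs did not pass against HGF on their brightest probe sets. RAB8A read 8.38, 8.71, 8.51 and 8.41 with PD and 8.62, 8.40 and 8.62 with UO (-0.23 and -0.18, adjusted p = 0.0583 and 0.171). RAB8B read 6.13, 5.73, 5.36 and 6.09 with PD and 5.40, 5.42 and 6.10 with UO, and RAB3B read 5.47, 5.28, 5.27 and 5.27 with PD and 5.19, 5.30 and 5.30 with UO. RAB13 read 10.10, 10.08, 10.02 and 10.01 with PD and 10.00, 9.94 and 9.96 with UO (-0.06 and -0.15, adjusted p = 0.387 and 0.054). The RAB13 arrays of HGF + UO lay below all HGF arrays even so. A dimmer RAB13 probe set passed with UO (-0.21, adjusted p = 0.0236) and not with PD (-0.09, adjusted p = 0.273). The UO difference of RAB13 passed in 5 of 24 alternatives, among them the mean of its probe sets (-0.18).

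**Figure D3:**
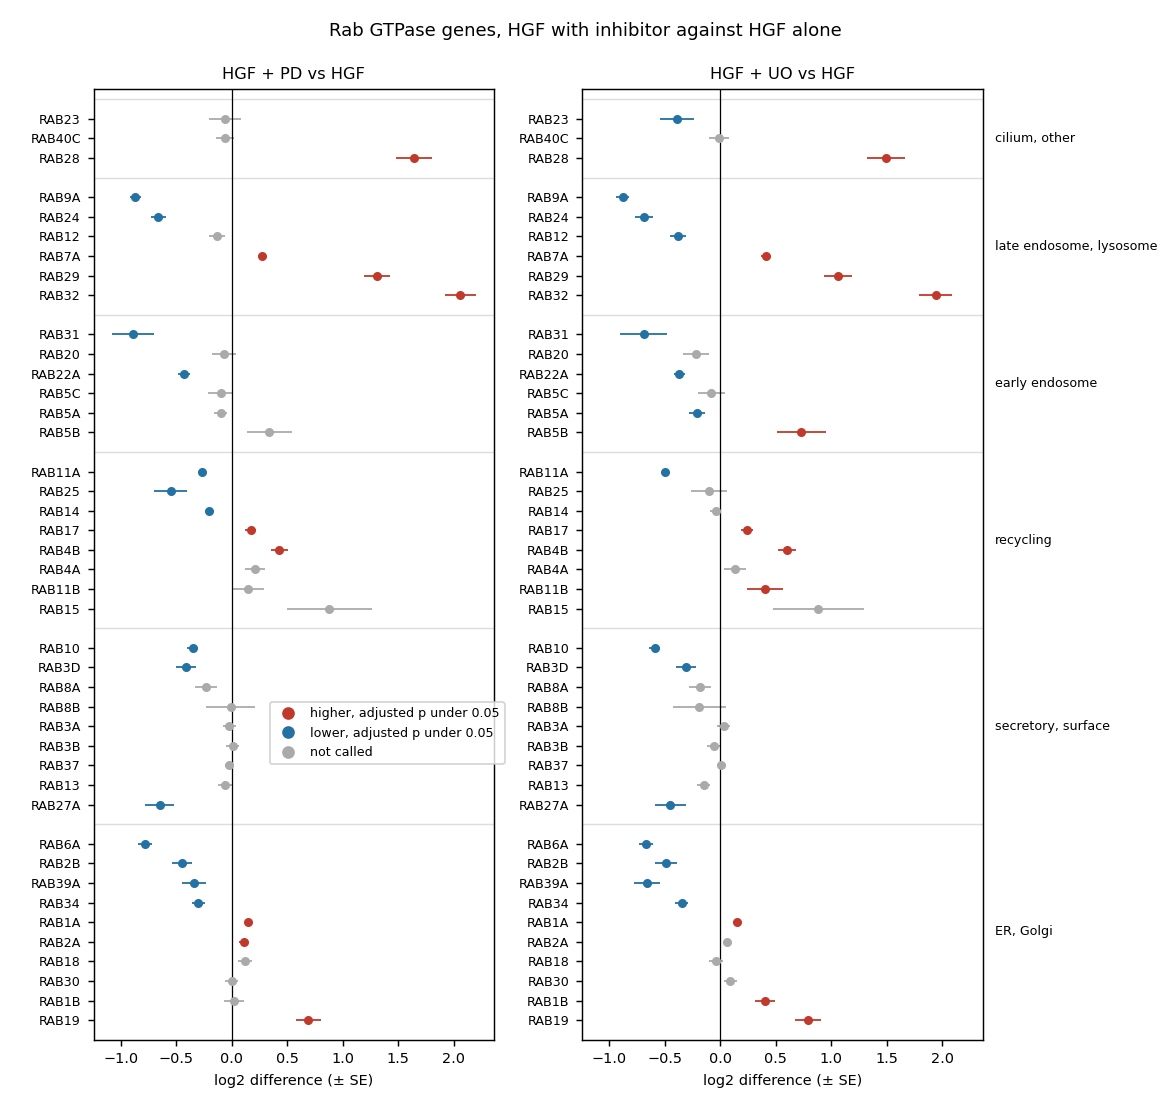
Log2 difference of the 42 Rab GTPase genes between HGF + PD and HGF (left) and HGF + UO and HGF (right), with the SE of the fit as bars and genes ordered as in the plot of HGF against Control. RAB32 lies farthest right at 2.06 and 1.94, and RAB9A is among the farthest left at -0.87 and -0.88.

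Against Control, cells given HGF with an inhibitor differed in fewer Rab genes. HGF + PD differed in 15 of 42, 7 higher and 8 lower, beside 35.3% of all genes (21.8% higher and 13.5% lower). HGF + UO differed in 6, 2 higher and 4 lower, beside 24.1% of all genes (13.8% higher and 10.3% lower). RAB15 alone was called lower by 1 or more on the log2 scale in either comparison, beside 0.894% and 0.758% of all genes. Both comparisons use the same Control arrays. For HGF + PD the split became 3 and 11 after quantile normalization and 3 and 12 when array medians were subtracted, and for HGF + UO 1 and 5, and 2 and 5. The 15 calls of HGF + PD fell to 9, 9 and 8 without Control replicates 1, 2 and 3 and to 9 without HGF + PD replicate 1 or 4.

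RAB27A and RAB13 were lower than Control under both compounds. RAB27A differed by -0.81 ± 0.13 with PD (adjusted p = 0.000285) and by -0.62 ± 0.14 with UO (adjusted p = 0.00618), and all 7 inhibitor arrays, from 6.68 to 7.43, lay below the 4 Control arrays, from 7.65 to 7.86. RAB13 differed by -0.20 ± 0.06 with PD (adjusted p = 0.0136) and by -0.28 ± 0.06 with UO (adjusted p = 0.00339), again with no overlap. A dimmer RAB13 probe set gave -0.09 with PD and did not pass, and -0.21 with UO (adjusted p = 0.0491). These are secretory and junctional Rabs, and neither was called for HGF against Control in the main fit. In that comparison RAB13 was called lower in 6 of 24 alternatives, while its dimmer probe set gave 0.00 (adjusted p = 0.991).

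RAB15 stayed below Control as well, by -1.24 ± 0.38 with PD and -1.24 ± 0.41 with UO (adjusted p = 0.0213 and 0.0443). The PD array at 6.73 reached the range of Control. These RAB15 calls were lost in 5 and 12 of 24 alternatives, among them the fits without Control replicate 1, 2 or 3. RAB5B (-0.61 ± 0.20), RAB1B (-0.25 ± 0.09), RAB14 (-0.15 ± 0.04), RAB22A (-0.14 ± 0.05) and RAB7A (-0.19 ± 0.03) were lower with PD alone, and RAB11A with UO alone (-0.12 ± 0.03). The PD calls of RAB5B, RAB1B and RAB22A were lost in 8, 10 and 8 of 24 alternatives. Those of RAB14 and RAB7A were lost in the mean of their probe sets (-0.10 and -0.38). Dimmer probe sets of RAB14 and RAB22A gave -0.05 and 0.13 with PD, and those of RAB1B -0.07, -0.05 and -0.16. None of these dimmer probe sets passed, while a further RAB5B probe set did (-0.42, adjusted p = 0.0437). In the mean of its probe sets the RAB11A difference under UO was 0.00.

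Rises above Control were small. RAB10 differed by 0.30 ± 0.05 with PD (adjusted p = 0.000367), RAB12 by 0.29 ± 0.07 (adjusted p = 0.00461) and RAB29 by 0.34 ± 0.12 (adjusted p = 0.0488). Dimmer probe sets of RAB10, RAB12 and RAB29 gave 0.12, 0.15 and 0.14 with PD and did not pass (adjusted p = 0.109, 0.276 and 0.559). RAB12 read 10.40, 10.24, 10.43 and 10.61 on the PD arrays and 10.19, 10.15 and 10.16 on the UO arrays, against 10.07 to 10.17 in Control. RAB20, RAB9A, RAB11A and RAB1A also passed with PD, at 0.34, 0.16, 0.11 and 0.12. The RAB29 and RAB9A calls were lost in 14 and 12 of 24 alternatives. Those of RAB11A and RAB1A with PD were lost after either rescaling of the arrays. A dimmer RAB11A probe set gave 0.35 with PD (adjusted p = 0.000103). The RAB20 call was lost in 4, each with 1 array left out (Control replicate 2, 3 or 4 or HGF + PD replicate 4). With UO the rises were RAB4B (0.37 ± 0.08, adjusted p = 0.00481) and RAB1A (0.12 ± 0.04, adjusted p = 0.0286). The dimmer RAB4B probe set gave 0.12 with UO and did not pass (adjusted p = 0.231). The RAB1A call under UO was lost in 8 of 24 alternatives, among them the fits without Control replicate 2 or 3 or any 1 of the HGF + UO arrays. RAB1A, a Rab of ER-to-Golgi transport, read 13.31, 13.16, 13.18 and 13.26 in Control, 13.17, 13.24, 13.20 and 13.19 with HGF, 13.36, 13.29, 13.39 and 13.36 with PD and 13.34, 13.35 and 13.36 with UO.

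RAB32, RAB28 and the brightest probe set of RAB6A, all called with HGF, did not pass against Control under either inhibitor. For RAB32 the difference from Control was 0.14 with PD (95% interval -0.16 to 0.44) and 0.02 with UO (-0.30 to 0.34). For RAB28 it was 0.21 (-0.13 to 0.55) and 0.06 (-0.31 to 0.43). For RAB6A it was 0.05 (-0.07 to 0.17) and 0.16 (0.03 to 0.28), and the UO value missed the threshold (adjusted p = 0.0805) with arrays that did not overlap. The dimmer RAB6A probe set that rose by 1.64 with HGF was 0.61 above Control with PD (adjusted p = 0.000603) and 0.09 with UO (adjusted p = 0.668). These intervals do not show that the levels were equal. The actin 3' minus 5' difference was 1.28 in both inhibitor groups and 1.34 in Control, and the GAPDH difference 1.08 with PD, 1.25 with UO and 1.13 in Control. Their part in these values was not tested.

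**Figure D4:**
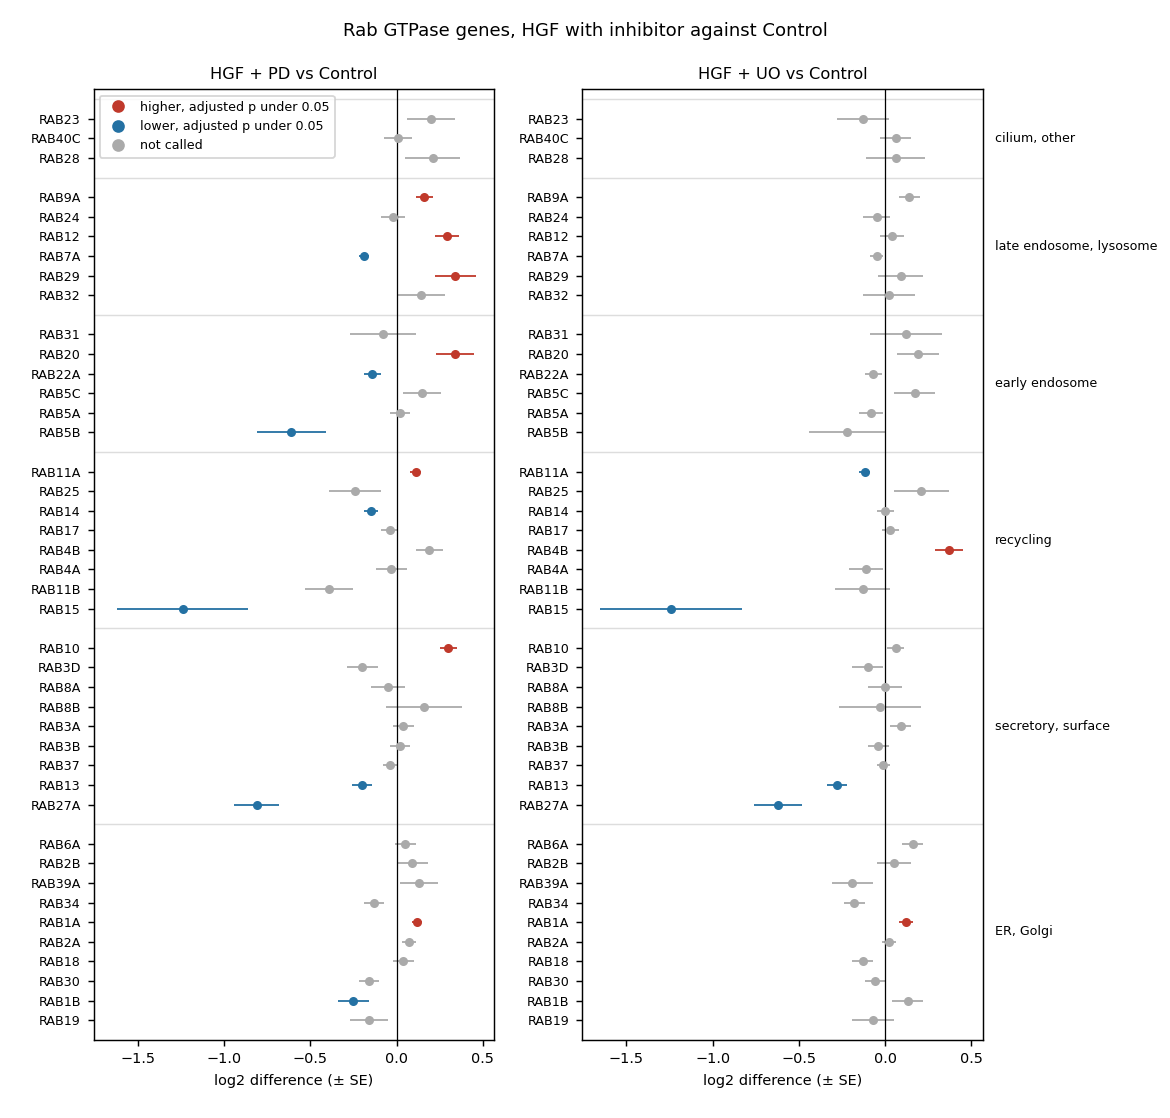
Log2 difference of the 42 Rab GTPase genes between HGF + PD and Control (left) and HGF + UO and Control (right), with the SE of the fit as bars. RAB15 at -1.24 in both panels and RAB27A at -0.81 and -0.62 are the lowest points, and most genes lie within 0.3 of 0.

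Members of 1 subfamily, which share much of their sequence and function, were set side by side for HGF against Control. RAB2B rose by 0.54 while RAB2A gave -0.05. RAB1B was called at -0.27 and RAB1A gave -0.03 without a call. RAB5B fell by 0.95, with RAB5A at 0.12 and RAB5C at 0.25. RAB11A rose by 0.38 and RAB11B fell by 0.53. On the brightest probe sets the pairs RAB4A and RAB4B (-0.24 and -0.24) and RAB8A and RAB8B (0.18 and 0.17) gave nearly the same values. RAB3A, RAB3B and RAB3D lay between 0.01 and 0.21. Dimmer probe sets gave -0.30 for RAB4A, -0.10 for RAB4B and -0.19 for RAB8B, so the likeness depends on the probe set. Differences between subfamily members were not tested. Probe sets that end in _s_at or _x_at can bind related transcripts, so near copies may share signal.

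Genes that act on Rabs were taken as whole lists of 4 kinds, of which 115 genes passed the filter. With HGF, 5 of 8 genes of prenylation and GDP dissociation were called (4 higher, 1 lower), 14 of 31 exchange factors (8 and 6), 15 of 31 GTPase-activating proteins (5 and 10) and 22 of 45 effectors (14 and 8), a total of 56 beside 55.7% of all genes. The median log2 differences were 0.23, 0.01, -0.11 and 0.03. Against HGF, 62 of the 115 were called with PD, beside 55.7% of all genes, and 54 with UO, beside 52.5%. Against Control 39 were called with PD, beside 35.3%, and 23 with UO, beside 24.1%. The last count fell to 12, 13 and 14 without HGF + UO replicates 1, 2 and 3 and to 15 without Control replicate 3.

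Among genes of Rab lipid anchoring, both subunits of the geranylgeranyl transferase rose with HGF. RABGGTA, the alpha subunit, rose by 0.92 ± 0.15 (adjusted p = 0.000129) and RABGGTB, the beta subunit, by 0.56 ± 0.09 (adjusted p = 7.97e-05). RABAC1, which binds prenylated Rabs, rose by 0.67 ± 0.05. ICMT, which methylates the prenylated end, fell by 0.65 ± 0.08 and was 1.05 ± 0.08 and 1.01 ± 0.08 higher than HGF under PD and UO. ICMT and RABAC1 were also higher than Control under both compounds, ICMT by 0.40 and 0.36 and RABAC1 by 0.37 and 0.16.

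Exchange factors held the largest change of these lists. DENND2C, an exchange factor for RAB9, rose by 3.95 ± 0.11 with HGF, from a mean of 6.34 to 10.29 (adjusted p = 1.29e-12), and was -4.05 ± 0.11 and -4.07 ± 0.12 against HGF under PD and UO. RIC1, part of the exchange factor for RAB6A, rose by 1.04 ± 0.10 (0.39 on another probe set), and RABGEF1, which activates RAB5, by 0.60 ± 0.12. RAB3IP, the exchange factor for RAB8, fell by 1.10 ± 0.06 (adjusted p = 9.4e-10), with 2 other probe sets at -1.59 and -1.53. HPS4, a subunit of the exchange factor for RAB32 and RAB38, fell by 0.54 ± 0.09 (-0.30 on another probe set), and DENND6A, which activates RAB14, by 0.48 ± 0.15. Beside these stand their substrates RAB9A at 1.02, RAB6A at 0.83, RAB8A at 0.18, RAB8B at 0.17, RAB32 at -1.92, RAB14 at 0.04, RAB5A at 0.12, RAB5B at -0.95 and RAB5C at 0.25. Of these RAB9A, RAB6A, RAB32 and RAB5B were called, and RAB5B fell while RABGEF1 rose.

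The GTPase-activating proteins moved both ways. TBC1D2, which acts on RAB7, rose by 2.74 ± 0.19 with HGF, from a Control mean of 3.39 that lies under the filter level, so the size depends on the GCRMA background. RAB3GAP2 and RAB3GAP1, which form a complex acting on RAB3, rose by 1.53 ± 0.12 and 0.61 ± 0.08. TBC1D4, which acts on RAB10, fell by 1.39 ± 0.10 (adjusted p = 1.6e-08). SGSM2, which acts on RAB32, gave -1.45 ± 0.17, but -0.02 on another probe set (adjusted p = 0.668). RABGAP1L gave -1.84 ± 0.05 on its brightest probe set and both directions on the others, from -2.39 to 0.62, so no single direction holds for this gene.

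Of the effectors, the RAB5 partners EEA1 and APPL1 rose. EEA1, which tethers early endosomes, rose by 1.70 ± 0.08 (adjusted p = 2.53e-10), with 3 other probe sets from 1.65 to 2.05, and differed from HGF by -1.89 ± 0.08 with PD and -2.01 ± 0.09 with UO. APPL1, an adaptor on early endosomes, rose by 1.60 ± 0.13, while its relative APPL2 fell by 0.98 ± 0.13. MICAL1, a Rab-binding enzyme that oxidises actin, rose by 1.81 ± 0.16. MYO5C, a myosin motor for secretory vesicles of epithelia, fell by 1.70 ± 0.12, and SYTL2, which links RAB27A to the plasma membrane, by 1.35 ± 0.11. SYTL2 was also below Control under PD and UO (-0.50 ± 0.11 and -0.48 ± 0.12), as RAB27A was.

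**Figure D5:**
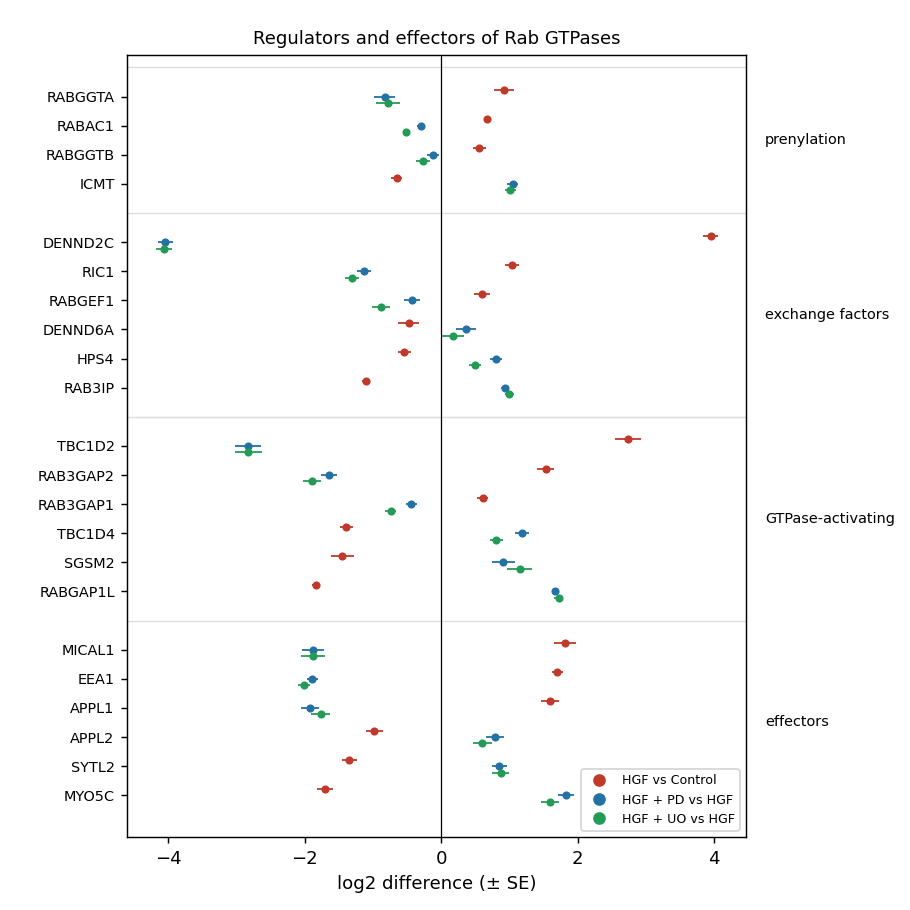
Log2 difference (points, with the SE of the fit as bars) of 22 genes that act on Rabs, for HGF against Control (red), HGF + PD against HGF (blue) and HGF + UO against HGF (green). DENND2C spans the widest range, from 3.95 with HGF to -4.07 under UO against HGF.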

How the data were processed

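RNA of MDCK cells was measured on 15 Affymetrix canine arrays. The deposited values are linear probe set intensities that the authors made with GCRMA, per the submitters' processing notes (version: not given in the sources used here). GCRMA subtracts a background estimated from probe sequence, normalises between arrays and summarises probes, which compresses dim probe sets. The deposited intensities were put on a log2 scale and not rescaled. The array maker's 111 controls were set aside, and 24904 of 42924 others reached a log2 of 4 on 3 or more arrays. Symbols came from the platform annotation, in which 29254 of these 42924 probe sets have 1 symbol, 439 have several and 13231 are unnamed here. Those with several were left unnamed.

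Groups came from the sample titles. limma 3.58.1 in R 4.3.3 fitted 1 mean per group over all 15 arrays (lmFit, eBayes with a variance trend), with Benjamini-Hochberg adjustment over the 24904 probe sets and a threshold of 0.05. Every adjusted p-value of a gene comes from this fit, and 95% intervals are unadjusted. Arrays are biological replicates per the labels, which do not state separate cultures, so the p-values reflect spread among these arrays and may be technical in part. The procedure was tested on simulated data. Array ratios were compared with exact permutation tests.

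The members and the lists were chosen with earlier results of these data known. The rule for genes given in full took the 6 largest rises and falls of HGF against Control and the 3 largest each way of the other comparisons, past the threshold with arrays that did not overlap, plus 13 Rabs of epithelial polarity. Of the lists of genes acting on Rabs, the 3 largest changes each way were named. Alternatives varied the filter (none, or a log2 of 6), scaling (quantile, array medians), a pseudocount of 16, the variance trend, the arrays in the fit, the mean of all probe sets of a gene, a replicate block, and each array left out. No 2 arrays were near-identical.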

Additional observations from a re-analysis of the deposited data

Results flagged for a closer look

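In 12 of 126 gene and group combinations with 4 arrays (9.52%), 1 array stood apart from the other 3 by more than Dixon's 95% critical value for the gap over the group's range, where about 5% arise by chance. Among genes called with HGF, RAB31 read 7.85 on HGF replicate 3 against 6.84 to 6.93 on the others, and RAB15 read 5.40 on HGF replicate 4 against 4.69 to 4.77. RAB24 read 9.41 on Control replicate 1 against 9.52 to 9.54, RAB17 read 7.36 on Control replicate 1 against 7.24 to 7.26, and RAB29 read 8.16 on Control replicate 4 with the other 3 at 8.30. RAB19 read 7.22 on HGF + PD replicate 3 against 6.98 to 7.00.

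The others were genes not called with HGF. RAB5C read 5.99 on Control replicate 3 against 6.59 to 6.64, and 6.50 on HGF + PD replicate 4 against 6.64 to 6.65. RAB5A read 9.67 on HGF replicate 3 with the other 3 at 9.73. RAB8B read 6.19 and RAB40C 5.38 on HGF replicate 4, against 5.68 to 5.73 and 5.08 on the others. RAB3B read 5.47 on HGF + PD replicate 1 against 5.27 to 5.28. HGF replicate 4 held 3 of the 12, and several of these gaps were under 0.2 on the log2 scale.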

How the results depend on the processing

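Over 24 alternatives, 19 of the 25 Rab genes called with HGF kept the call in every one, as did 17 of 23 for HGF + PD against HGF, 18 of 26 for HGF + UO against HGF, 4 of 15 for HGF + PD against Control and 3 of 6 for HGF + UO against Control. Leaving out 1 array at a time gave 22 to 27, 22 to 25, 23 to 27, 8 to 16 and 4 to 7 called Rab genes in these 5 comparisons. Of the last 2, the higher calls ranged from 4 to 7 and from 1 to 3 and the lower calls from 4 to 10 and from 3 to 5, and the called genes acting on Rabs in HGF + UO against Control ranged from 12 to 24. Higher calls of HGF + PD against Control were 3 after quantile normalization and 3 with array medians subtracted, and its lower calls were 5 in a fit of the 2 groups alone and 5 with the mean of all probe sets. Higher calls of HGF + UO against Control were 1 after quantile normalization, without a variance trend and in a fit of the 2 groups alone. Without the filter, 15 genes acting on Rabs were called in HGF + UO against Control. With the mean of all probe sets, RAB7A in HGF + PD against HGF reversed to -0.16 and RAB11A in HGF + UO against Control became 0.00, since dimmer probe sets of these genes entered the mean. The causes of the other shifts were not tested. Of 5020 single gene values under alternatives, 4774 stayed on their side of the threshold, 158 lost the call, 86 gained it and 2 called values reversed. Uncalled values near 0 also changed sign, such as RAB14 with HGF (-0.02 to 0.09). Deviations of same-numbered arrays of different groups correlated from -0.247 to 0.412, and those of other-numbered arrays from -0.494 to 0.395. The numbers were therefore not taken as pairs. A fit with the replicate number as a block called 25, 23, 24, 14 and 5 Rab genes. Such a block does not take out deviations shared by arrays of different numbers. Array number and dim signal, as for RAB15 with HGF, limit the precision.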

Other observations

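RAB1B, RAB5B, RAB11B, RAB15 and RAB25, chosen after their values were seen, shared their highest or their lowest array in 2 of the 4 groups. On the HGF + PD arrays all 5 were highest on replicate 2, at 10.65, 10.12, 10.98, 6.73 and 7.28, and next highest on replicate 3. On the Control arrays all 5 were lowest on replicate 4, at 10.47, 9.70, 10.76, 6.48 and 6.82, and above it RAB15 followed another order of arrays than the other 4. In the other groups the 5 differed, since RAB15 was highest on HGF replicate 4 and the other 4 on HGF replicate 3, and with UO the highest array was replicate 3 for RAB1B and RAB15 and replicate 1 for RAB5B, RAB11B and RAB25. RAB11B, RAB15 and RAB25 are recycling endosome Rabs and the others are not, and the spread of the 5 on the HGF + PD arrays was wide (SD 0.19, 0.45, 0.27, 0.86 and 0.32). The actin 3' minus 5' difference was 1.20 on HGF + PD replicate 2, the lowest of the 4, and 1.36 on Control replicate 4. The part of RNA quality in these values was not tested. Over all probe sets, deviations of Control replicate 4 and HGF + PD replicate 2 correlated at -0.494, the lowest value between groups. The opposite deviation of these arrays was therefore not limited to the 5 genes or to Rab genes. Whether the 5 genes followed it more closely than other genes was not tested.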
